A study of Mus musculus with 2 samples.

Results

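The 9 genes described here encode the natriuretic peptide system of the mouse: the peptides Nppa, Nppb and Nppc, the receptors Npr1, Npr2 and Npr3, and the enzymes Corin, Furin and Mme. They were chosen by name, and all 9 were found among the 43346 mouse genes of both gene tables. The libraries were made from whole hearts of newborn B6NCrl mice at postnatal day 0, each from 13 pg of RNA longer than 200 nt, an input given as 1 cell-equivalent. Replicate 1 came from the single heart of pup 1 and replicate 2 from that of pup 3, by which names the libraries go below, and both form 1 untreated group with no control, so no test between conditions exists. The labels give both hearts 1 donor identifier. The RNA was extracted from tissue and not from a sorted cell, although the assay title is that of a single-cell one. The design asks how alike the picture of the heart is in separate pups at this input. Levels are TPM, transcripts per 1000000 over mouse genes, which are scaled by length, and a gene is called read at 1 TPM or more. In bulk RNA of this kind, fewer cells of a type and less RNA per cell cannot be told apart.

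Natriuretic peptides are hormones that lower blood volume and pressure and act on the heart itself. Atrial natriuretic peptide (from Nppa) and B-type natriuretic peptide (from Nppb) are made by heart muscle cells as longer precursors, which the membrane protease corin and the convertase furin cut. Both peptides bind the receptor encoded by Npr1, whose inner part is a guanylyl cyclase that makes cyclic GMP. C-type natriuretic peptide (from Nppc) binds the related cyclase encoded by Npr2, while Npr3 encodes a clearance receptor with no cyclase part, and neprilysin, from Mme, degrades the peptides.

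The system was dominated by its ligands, and among them by Nppa. Of the 9 genes, 6 were read in both libraries, 2 in 1 library alone and 1 had 0 counts in both. For comparison, 15.3% of all mouse genes and 28.4% of protein-coding genes were read in both. The peptide genes together held 6670 TPM in pup 1 and 5318 TPM in pup 3, or 0.667% and 0.532% of all TPM. The receptors together held 41.0 and 20.6 TPM, and the 3 enzymes 16.5 and 66.9 TPM.

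**Figure D1:**
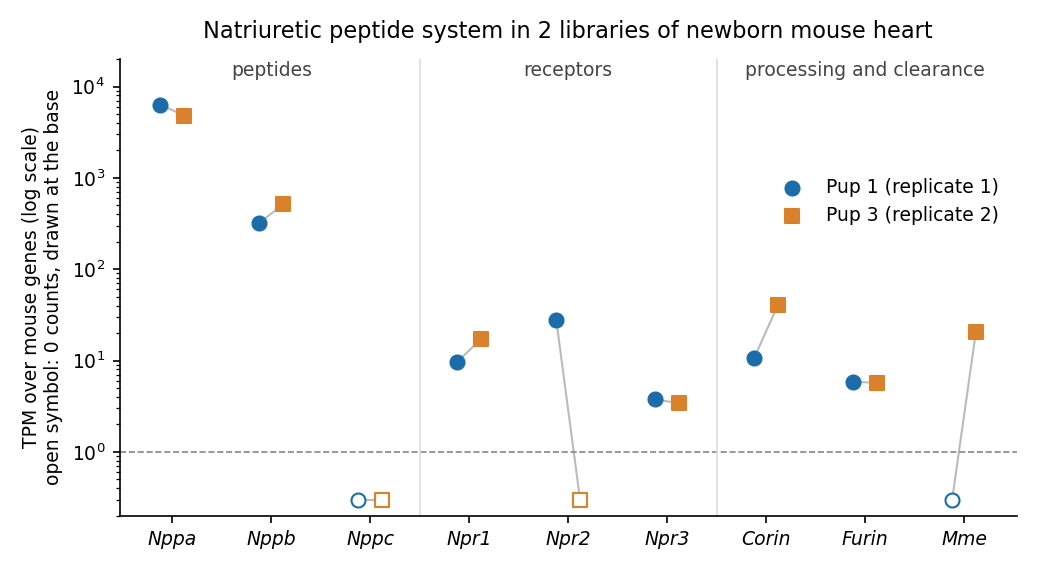
Level of each gene in TPM over mouse genes on a log scale, with 1 circle for pup 1 and 1 square for pup 3, and the dashed line at 1 TPM. Open symbols at the base stand for 0 counts. Nppa and Nppb lie far above the receptors and enzymes, Nppc is at 0 in both libraries, Npr2 was read in pup 1 alone and Mme in pup 3 alone.

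Nppa lies on chromosome 4 (148000722 to 148002079, plus strand, mm10) and has 1 listed transcript. It had 6346 TPM in pup 1 and 4806 TPM in pup 3, which placed it at rank 17 and rank 26 of all mouse genes. These levels rest on 157002 counts in pup 1 (95% Poisson interval 156227 to 157781) and 100860 in pup 3 (100238 to 101484). The intervals cover counting error only, because reads without molecular identifiers are not independent molecules. The libraries lay 1.32-fold apart, with pup 1 higher. Of the 151 genes that averaged at least 1000 TPM, 9.93% differed by more than 2-fold, and Nppa did not.

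Nppb lies upstream of Nppa on the same strand (chromosome 4, 147985788 to 147987205), with 13516 bases between the genes. It had 323 TPM in pup 1 and 512 TPM in pup 3, from 7124 and 9567 counts (mean 418 ± 133 TPM, SD, n = 2). The libraries were 1.58-fold apart, this time with pup 3 higher, and 14.1% of genes at 300 to 1000 TPM were over 2-fold apart. Nppa was thus 19.6 times Nppb in pup 1 and 9.39 times in pup 3. Within the pool of peptide transcripts, Nppa made up 95.2% in pup 1 and 90.4% in pup 3.

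Nppc, on chromosome 1 (86666291 to 86670571, minus strand), had 0 counts in both libraries. Outside the heart it is best known in vessel walls, bone and brain. A count of 0 allows up to 3 counts, which for Nppc would be 0.0985 TPM in pup 1 and 0.116 TPM in pup 3. Against that limit, Nppa was at least 64427-fold and 41388-fold higher per length. The limit holds for the libraries and not for the hearts, since genes were missed by 1 library at far higher levels.

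The active peptides share a ring closed by a bond between 2 cysteines, and the stretch that encodes it is shown for Nppb and Nppc because reads of related genes must be told apart there. Each stretch has 17 codons in exon 2 of 3, with the cysteine codons in capitals, 5′ to 3′ on the coding strand (GENCODE M21 transcripts, mm10). They lie at chr4:147986464-147986514 for Nppb and chr1:86669667-86669717 for Nppc.
Nppb: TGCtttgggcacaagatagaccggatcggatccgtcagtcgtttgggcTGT
Nppc: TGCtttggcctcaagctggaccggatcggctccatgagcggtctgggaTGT
Nppb and Nppc were identical at 40 of 51 bases. The longest run of bases shared by the whole Nppa and Nppb transcripts was 10, and it was 12 for Nppa and Nppc and 11 for Nppb and Nppc. The peptide transcripts therefore share no long exact run. The same holds for the receptors, where the longest shared run was 18 bases, between Npr1 and Npr2. Identity that allows mismatches was not measured over whole transcripts, nor was it tested whether reads were assigned to the right gene.

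A second gene overlaps Nppa. Gm13054, annotated as an antisense RNA on the minus strand (148001091 to 148004014), shares 532 exon bases with Nppa. It had 42.6 TPM from 992 counts in pup 1 and 8.57 TPM from 169 counts in pup 3. These counts were 0.632% and 0.168% of those of Nppa. Whether counting took strand into account is not stated in the labels or notes. Reads from the shared bases therefore may not have been told apart, and the level of Gm13054 is uncertain. The next protein-coding genes on either side were weakly read and not in both libraries. Clcn6, a chloride transporter gene beyond Nppa, had 5.92 TPM in pup 1 and 0 counts in pup 3. 2510039O18Rik, before Nppb, had 0.0104 TPM in pup 1 and 18.1 TPM in pup 3.

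The stretch of 250 bases before the start of Nppa is shown because Nppa was by far the most highly read member and the factors described further on are known to act there. It comes from RefSeq on GRCm38.p6, plus strand, at chr4:148000472-148000721. Capitals mark matches on either strand to sites of known heart factors. The letters searched were GATAA for GATA factors. For NKX2 factors they were AAGTG, and for TEAD factors CATTCC. The box that positions transcription starts was searched as TATAAA.
Nppa: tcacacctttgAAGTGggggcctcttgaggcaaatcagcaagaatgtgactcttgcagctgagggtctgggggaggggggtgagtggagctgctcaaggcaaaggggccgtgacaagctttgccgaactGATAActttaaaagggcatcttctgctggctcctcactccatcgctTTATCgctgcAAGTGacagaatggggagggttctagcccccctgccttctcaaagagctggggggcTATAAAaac
Nppa held 1 TATA box, 2 GATA sites and 2 NKX2 sites. The same window of Nppb held 1 TATA box, 2 GATA sites and 1 TEAD site, and no matches overlapped in either. RefSeq places the Nppb start downstream of the one GENCODE gives, so its window reaches into the GENCODE transcript. The GATA sites lay at −121 and −75 in Nppa and at −94 and −83 in Nppb, counted from the RefSeq start. On the same count the TATAAA match began at −9 in Nppa and at −31 in Nppb. Whether the Nppa match positions a start was not tested. Over 27025 promoters of the same length, 13.0% held the TATA box, 23.0% the GATA site, 40.8% the NKX2 site and 12.6% the TEAD site. The CArG box, bound by serum response factor, was searched as CCWWWWWWGG, with W for A or T. No exact match lay in either window, and 1.40% of all promoters held a match. Looser forms of this box were not searched. A match is a description of the letters and not a bound site.

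The receptors were read at far lower levels, and each behaved differently between the libraries. Npr1 (chromosome 3, 90450591 to 90465866, minus strand) had 9.70 TPM from 314 counts in pup 1 and 17.2 TPM from 1527 counts in pup 3. The ratio was 1.77-fold in TPM and 5.89-fold in counts per 1000000, at 7.91 in pup 1 and 46.6 in pup 3. The scales differ because reads fell on transcript models of different lengths.

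The transcript tables show where the Npr1 reads lay. Npr1-201, the 1 protein-coding model of the 5 listed, has 22 exons and 4066 bases. It took 60.7 counts in pup 1, 19.3% of the gene, and 1439 counts in pup 3, 94.3% of the gene. In pup 1 most reads, 253 counts, were assigned to Npr1-205, a retained-intron model of 949 bases at the 3′ end of the gene (90450710 to 90451781), which had 72.5 counts in pup 3. That model made up 95.1% of the gene's TPM in pup 1 and 18.1% in pup 3. On the protein-coding model alone, Npr1 stood at 0.469 TPM in pup 1, below the level called read, and at 13.2 TPM in pup 3. The antisense RNA that overlaps Npr1, Gm16048, had 0 counts in pup 1 and 1.20 in pup 3.

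Npr2 (chromosome 4, 43631935 to 43651244, plus strand) was read in pup 1 and not in pup 3. It had 27.5 TPM from 1293 counts (Poisson interval 1223 to 1365) in pup 1 and 0 counts in pup 3. With 3 counts as the limit of a count of 0, its share of reads was at least 356-fold higher in pup 1. All its counts lay on protein-coding models, with 914 on Npr2-205, 223 on Npr2-202 and 157 on the short Npr2-203. Npr2-201, the longest model with 22 exons, had 0 counts.

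A library missing a gene of this level was common. Of 3028 genes averaging 10 to 30 TPM, 22.6% had under 3 counts in at least 1 library, and 61.0% were over 2-fold apart. The count of 0 for Npr2 in pup 3 therefore sets no limit on its level in that heart. Npr1, Npr2, Corin and Mme all fall within this range, and 3 of them, all but Npr1, were over 2-fold apart in TPM.

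Npr3 (chromosome 15, 11839896 to 11907287, minus strand), the clearance receptor, was the receptor with the closest values. It had 3.75 TPM from 826 counts in pup 1 and 3.41 TPM from 639 counts in pup 3, all on its single listed transcript, Npr3-201. The mean was 3.58 ± 0.238 TPM (SD, n = 2). Among genes at 3 to 10 TPM, 81.2% were over 2-fold apart, and Npr3 was not.

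The order of the receptors could not be fixed from these libraries. Npr2 led in pup 1, ahead of Npr1 and Npr3, while Npr1 led in pup 3, ahead of Npr3, with Npr2 at 0. On the log2(TPM + 1) scale, Npr1 over Npr2 was −1.41 in pup 1 and 4.19 in pup 3, and Npr3 over Npr2 was −2.59 and 2.14. Npr3 over Npr1 was below 0 in both, at −1.17 in pup 1 and −2.04 in pup 3 (mean −1.61 ± 0.62, n = 2). With protein-coding models alone, a setting chosen after the values were seen, the same ratio was 1.69 in pup 1 and −1.69 in pup 3, so even that order depended on the Npr1 model counted.

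**Figure D2:**
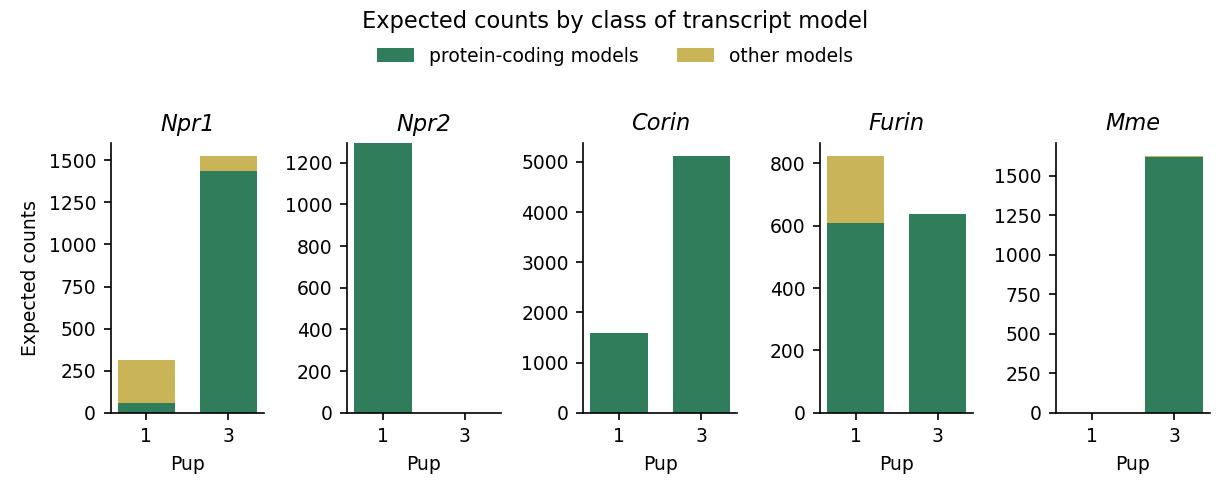
Expected counts in each library, split into protein-coding transcript models and other models, for the 5 members with several listed transcripts. Each panel has its own linear axis from 0. Other models hold most Npr1 counts in pup 1 and few in pup 3, and Npr2 and Mme each have counts in 1 library.

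Among the enzymes, Corin was read in both libraries and was higher in pup 3. Corin (chromosome 5, 72300025 to 72504473, minus strand), the protease that activates the Nppa precursor on the surface of heart muscle cells, had 10.7 TPM from 1585 counts in pup 1 and 40.7 TPM from 5120 counts in pup 3. That is a ratio of 3.81-fold in TPM and 3.91-fold in counts per 1000000. The split of its transcripts was steady, with Corin-202 at 75.3% of the gene in pup 1 and 70.4% in pup 3, and Corin-201 at 24.7% and 29.4%. Nppa was higher in the other library, pup 1, but by 1.32-fold only. Of genes averaging 10 to 30 TPM, the range of Corin, 61.0% were over 2-fold apart.

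Furin (chromosome 7, 80388585 to 80405436, minus strand), a convertase used by nearly all cells, was low and steady. It had 5.82 TPM from 824 counts in pup 1 and 5.73 TPM from 638 counts in pup 3 (mean 5.77 ± 0.0701, n = 2). The protein-coding Furin-201 held 79.8% of the gene in pup 1 and 99.9% in pup 3. The remainder in pup 1 was the retained-intron model Furin-205, with 214 counts against 1.24 in pup 3. Corin exceeded Furin in both libraries, since Furin over Corin was −0.78 in pup 1 and −2.63 in pup 3 on the log2(TPM + 1) scale (mean −1.70 ± 1.31, n = 2).

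Mme (chromosome 3, 63241537 to 63386030, plus strand) was the mirror of Npr2. It had 0 counts in pup 1 and 20.5 TPM from 1626 counts (Poisson interval 1548 to 1707) in pup 3. Its share of reads was at least 657-fold lower in pup 1, with 3 counts as the limit. Most counts, 1411, were assigned to Mme-205, a coding model of 8039 bases, while the short Mme-203 held the highest share of TPM, at 37.5% against 31.6%. Neprilysin is carried by fibroblasts, and in humans it also marks neutrophils and B cell precursors. All 8 fibroblast genes were read in both libraries, beside 28.4% of protein-coding genes. Their summed level was 1210 TPM in pup 1 and 999 TPM in pup 3. Of 9 neutrophil and B lineage genes, 1 was read in both libraries, and the list summed to 72.7 TPM in pup 1 and 125 TPM in pup 3. The neutrophil gene S100a9 had the same pattern as Mme, being without counts in pup 1 and at 75.3 TPM in pup 3, while Retnlg was at 15.4 TPM in pup 1 and without counts in pup 3. S100a8 was at 57.3 TPM in pup 1 and 49.6 TPM in pup 3, and the neutrophil genes Ngp and Camp and the B lineage genes Cd79a, Cd79b and Vpreb1 had 0 counts in both. The part of these cells in the Mme difference was not tested.

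Of the 9 genes, 7 averaged at least 5 TPM, and 3 of these were over 2-fold apart, Npr2 higher in pup 1 and Corin and Mme higher in pup 3. Among all 8266 genes with such a mean, 54.6% were, so the count of members is no more than the background gives. The median log2 ratio of those genes was −0.01. In counts per 1000000, Npr1 joined the 3 genes, at −2.42 on the log2 scale.

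**Figure D3:**
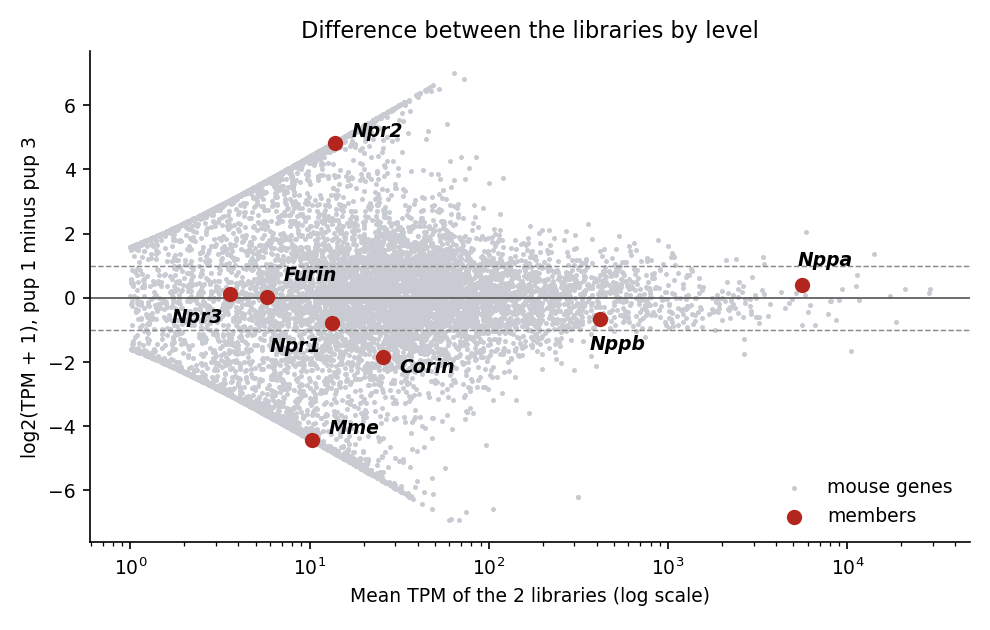
Difference in log2(TPM + 1), pup 1 minus pup 3, against the mean TPM of both libraries on a log scale, with every mouse gene averaging at least 1 TPM in grey and the members in red. Dashed lines mark 2-fold. Npr2 and Mme sit on the outer edges, where 1 library has no reads, while Furin and Npr3 sit near 0.

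Nppa is made mainly by the atria after birth and also by the ventricular trabeculae before it, so genes of the chambers were set beside it. Of 10 atrial myocyte genes, 6 were read in both libraries, beside 28.4% of protein-coding genes. All 10 summed to 6792 TPM in pup 1 and 3496 TPM in pup 3. Myl7, the atrial myosin light chain, had 4639 TPM in pup 1 and 2239 TPM in pup 3. Sln, sarcolipin, had 839 and 219 TPM, and Dkk3 had 95.4 and 17.7 TPM. Of the 8 atrial genes that averaged at least 5 TPM, 7 were higher in pup 1, 6 of them over 2-fold, and Bmp10 was higher in pup 3 (10.6 and 19.9 TPM). The median log2 ratio of these 8 genes was 1.94, beside −0.01 over all genes at that level. Of all genes averaging at least 5 TPM, 54.6% were over 2-fold apart, in either direction. This share was lower at high levels. It was 14.1% at 300 to 1000 TPM, the range of Sln, and 9.93% at 1000 TPM or more, the range of Myl7. Myl4 differed little, with 1104 and 987 TPM. Kcnj5 and Stard10 had 0 counts in pup 3, and Kcnj3 and Nr2f2 were below 1 TPM in both.

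Of 5 ventricular genes, 4 were read in both libraries, beside 28.4% of protein-coding genes. All 5 summed to 12844 TPM in pup 1 and 28402 TPM in pup 3. Myl2, the ventricular myosin light chain, had 5082 TPM in pup 1 and 15945 TPM in pup 3, Myl3 had 6673 and 10682 TPM and Myh7 had 1055 and 1757 TPM, while Hey2 was higher in pup 1 (34.3 and 16.3 TPM). Irx4 had 0 counts in pup 1 and 1.45 TPM in pup 3. At 1000 TPM or more, the range of Myl2, 9.93% of genes were over 2-fold apart. The median log2 ratio of the 4 genes that averaged at least 5 TPM was −0.71. The general cardiomyocyte list moved the same way as the ventricular one, with sums of 34370 TPM in pup 1 and 47337 TPM in pup 3, 7 of 8 genes higher in pup 3 and a median log2 ratio of −0.44. The atrial sum and Nppa were thus both higher in pup 1, and the ventricular and cardiomyocyte sums and Nppb higher in pup 3. The sizes were unlike, since Nppa had a log2 ratio of 0.40, within 2-fold, beside the atrial median of 1.94. Nppb, at −0.66, was also within 2-fold, beside the ventricular median of −0.71. Whether a different share of atrial and ventricular tissue takes part in the difference between the libraries was not tested.

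**Figure D4:**
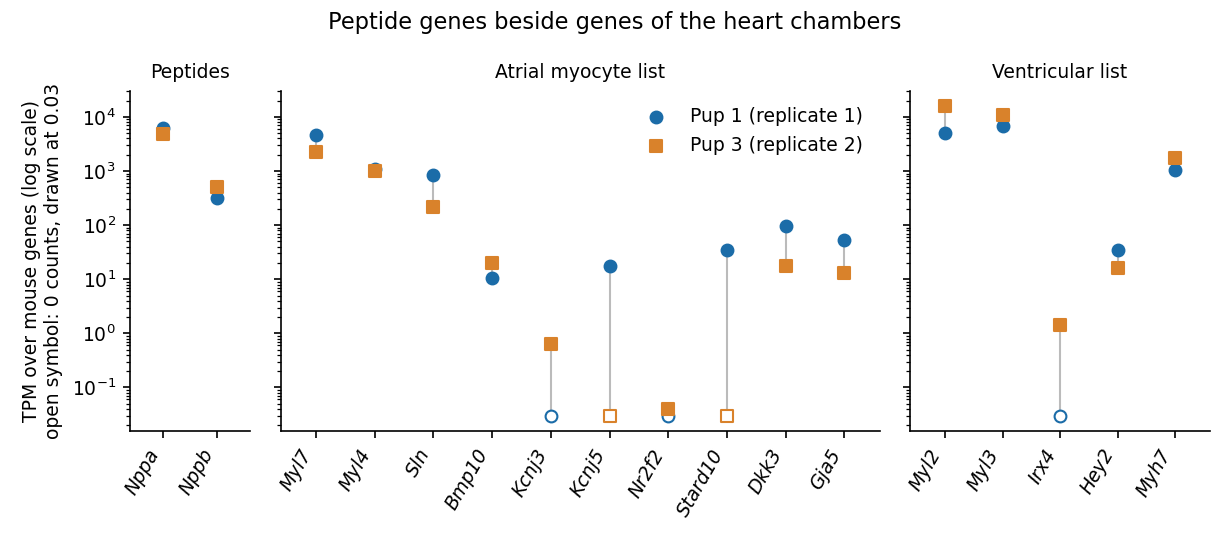
TPM over mouse genes on a log scale for Nppa and Nppb, for the 10 atrial myocyte genes and for the 5 ventricular genes, with circles for pup 1 and squares for pup 3. Open symbols stand for 0 counts. Most atrial genes have the circle above the square, and Myl2, Myl3 and Myh7 have the square above the circle.

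Transcription factors known to act at Nppa or Nppb were mostly read. Of 17 such genes, 13 were read in both libraries, 2 in 1 library, and Tbx2 and Yy1 had 0 counts in both. For comparison, 28.4% of protein-coding genes were read in both. Gata4, a factor that binds GATA sites, had 41.4 TPM in pup 1 and 41.2 TPM in pup 3. Tbx20 had 28.5 and 63.4 TPM, and Mef2a 27.1 and 74.8 TPM. Myocd, the myocardin coactivator of serum response factor, had 9.21 TPM in pup 1 and 138 TPM in pup 3. Tead1, a TEAD factor, was the most different, with 0.792 TPM in pup 1 and 27.8 TPM in pup 3, and Srf had 0.135 and 8.09 TPM. Nkx2-5 had 9.38 TPM in pup 1 and 1.69 TPM in pup 3, and Tbx5, a factor of the atria and left ventricle, had 15.4 and 5.18 TPM. Of the 13 factors that averaged at least 5 TPM, 8 were over 2-fold apart, 4 in each direction, a share near the 54.6% of all genes at that level.

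Genes of peptide storage were led by Pam and Cpe. Pam, which encodes an amidating enzyme and major membrane protein of atrial granules, had 305 TPM in pup 1 and 74.4 TPM in pup 3. Cpe, a carboxypeptidase of secretory granules, had 187 TPM in pup 1 and 42.8 TPM in pup 3. Both were higher in pup 1, as were most atrial genes, and a link between them was not tested. Among all genes averaging at least 5 TPM, 54.6% were over 2-fold apart in either direction. That share fell with level, from 61.0% at 10 to 30 TPM to 14.1% at 300 to 1000 TPM. Pam and Cpe lie between these ranges, at a level for which the share was not computed. The granins and related genes Chga, Chgb, Scg2, Scg3 and Scg5, typical of endocrine cells, were below 1 TPM in both libraries. Thus 2 of the 7 genes of this list were read in both, a share near the 28.4% of protein-coding genes.

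Other convertases and peptidases that can act on such peptides were read in part, 4 of 11 in both libraries, beside 28.4% of protein-coding genes. Ece1, endothelin-converting enzyme, had 106 TPM in pup 1 and 62.8 TPM in pup 3. Ide, the insulin-degrading enzyme, which also cuts atrial natriuretic peptide, had 44.1 and 31.0 TPM. Pcsk7, a relative of furin, had 14.2 and 15.0 TPM, and Dpp4 had 5.04 and 24.2 TPM. Pcsk1 had 0 counts in pup 1 and 7.15 TPM in pup 3. Pcsk6, the convertase that activates corin, had 0 counts in both libraries, as did Pcsk2, Pcsk4, Pcsk5, Ece2 and Mmel1.

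Genes that make or answer to cyclic GMP, the product of the Npr1 and Npr2 cyclases, were set beside the receptors. Of 8 such genes, Prkg1 alone, the cyclic GMP-dependent kinase of heart and smooth muscle, was read in both libraries, at 31.4 TPM in pup 1 and 1.54 TPM in pup 3. The alpha and beta subunits of soluble guanylyl cyclase, which work as a pair, were split between the libraries. Gucy1a1 had 0.0625 TPM in pup 1 and 16.3 TPM in pup 3, whereas Gucy1b1 had 23.9 TPM in pup 1 and 0.0613 TPM in pup 3. Vasp, a kinase substrate, had 0.156 and 2.57 TPM, and Prkg2, Mrvi1, Gucy2c and Gucy1a2 had 0 counts in both. Differences of this kind were common, since 61.0% of all genes at 10 to 30 TPM were over 2-fold apart and 28.4% of protein-coding genes were read in both libraries.

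Of 9 phosphodiesterases that break down cyclic GMP, Pde1c alone was read in both libraries, beside 28.4% of protein-coding genes. A further 5 were read in 1 library, and the share of all genes read in 1 library alone was not computed. Pde1c had 2.72 TPM in pup 1 and 22.3 TPM in pup 3. Pde5a had 0.781 and 8.77 TPM. Pde9a, which like Pde5a is selective for cyclic GMP, had 0 counts in pup 1 and 18.1 TPM in pup 3, and Pde1a had 18.2 TPM in pup 1 and 0 counts in pup 3. Pde2a, also listed, was not analysed here.

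Most listed genes of cell types known to carry these receptors were read in both libraries, beside 28.4% of protein-coding genes. Of 8 endothelial and endocardial genes, 6 were read in both libraries, with a summed level of 301 TPM in pup 1 and 199 TPM in pup 3. Plvap (7.97 and 0.204 TPM) and Nfatc1 (0.792 and 2.41 TPM) were each read in 1 library. Of the 6 that averaged at least 5 TPM, 4 were higher in pup 1, such as Pecam1 (72.3 and 34.8 TPM) and Tek (40.0 and 35.7 TPM), and 2 were higher in pup 3, Cdh5 (24.9 and 39.4 TPM) and Tie1 (27.0 and 36.7 TPM). All 8 cardiomyocyte genes were read in both libraries. Of these, Actc1 had 13940 TPM in pup 1 and 23510 TPM in pup 3, Ttn had 147 and 649 TPM, and Tnnt2 had 8730 and 9166 TPM. At 300 to 1000 TPM, the range of Ttn, 14.1% of genes were over 2-fold apart. Of 8 smooth muscle and pericyte genes, 6 were read in both, at sums of 1059 and 1615 TPM. Most of these sums was Acta2 alone, at 988 and 1527 TPM. Notch3 was read in pup 1 alone, at 1.97 TPM, and Kcnj8 was below 1 TPM in both libraries. Of the 5 that averaged at least 5 TPM, 4 were higher in pup 3, and Tagln was higher in pup 1 (32.7 and 7.56 TPM). The 6 lung and liver genes had 0 counts in both libraries.

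The genes closest in level to the members were sought among protein-coding nuclear genes outside these lists, by distance in log2(TPM + 1) over the 2 libraries. For Nppa they were Tnni1 (6206 and 4557 TPM, distance 0.08), Slc25a4 (0.25) and Ckm (0.57). For Nppb they were Atp6v0c (304 and 517 TPM, distance 0.09), Gstp1 (0.10) and Slc25a11 (0.10). Abcc9, Angpt1 and Ap2a2 lay closest to Npr1, within 0.06, and Usf3, Ctu2 and Acvr2a closest to Npr3, within 0.15. With 2 libraries such likeness is a likeness of levels alone.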

How the data were processed

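RNA sequencing of 2 newborn mouse heart libraries was re-analysed. Per the labels' protocols, extraction used a mirVana kit and the general protocol follows Smart-seq. For each library the authors deposited a gene and a transcript table, with replicates not pooled. Per the file headers, these hold expected counts (estimated counts that need not be whole), TPM, posterior mean TPM and, in the deposited transcript tables, each transcript's percent of its gene. Text notes deposited with the tables name mm10 and GENCODE M4. Aligner and quantifier: not given in the sources used here.

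Deposited TPM was rescaled to 1000000 over 43346 genes with mouse identifiers, leaving out spike-ins and 26248 numbered rows. Symbols and positions came from GENCODE M21, which matched 42462 genes, so gene models can differ from the authors'. Depth was 39671930 and 32751851 mouse counts in replicates 1 and 2. The 3 counts set as the limit of a count of 0 correspond to 0.0756 and 0.0916 per 1000000. Spike-ins took 2.40% and 1.27% of counts. A chi-square per gene of 794 (11666 genes) shows that the tables are not 1 deposited library repeated. It says nothing of whether the RNA samples are separate, which rests on the labels.

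Ratios are replicate 1 (pup 1) over replicate 2 (pup 3) on log2(TPM + 1), which understates changes of low genes. The labels call the libraries biological replicates of separate pups. No p-value was computed. All members were described, and from each list up to 4 genes with the highest mean and the most different one were eligible for naming. Others were named after their values were seen. The members and lists were chosen with earlier results of these data known. Alternatives covered the pseudocount (0.1), the read level, posterior means, expected counts, TMM scaling (edgeR 4.0.16) or DESeq2 1.42.0 size factors for rounded expected counts, protein-coding models alone (chosen after the data were seen), and leaving out each replicate. Python 3.11.15, numpy 2.4.6, pandas 2.3.3, scipy 1.17.1, matplotlib 3.10.9 and R 4.3.3 were used. The calculation of ratios was tested on simulated data. The ring-coding stretch of 1 peptide gene is not reported here.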

Additional observations from a re-analysis of the deposited data

How the results depend on the processing

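The count of members read in both libraries stayed between 5 and 6 under the other read levels and units and with protein-coding models alone, and 7 members were read in either library taken by itself. The count over 2-fold apart was 3 or 4 in all settings run. TMM and DESeq2 factors shifted the median log2 ratio by 0.07 and 0.11. Npr3 over Npr1 (main log2 mean −1.61) changed to 0.04 in counts per 1000000 and to 0.00 with protein-coding models, settings that do not divide by length or that leave out the short retained-intron model of Npr1. The peptide genes took 0.599% of TPM and 0.375% of expected counts, with a range for TPM of 0.532 to 0.667% when either replicate was left out. At 5 TPM, 0 cyclic GMP synthesis and kinase genes and 0 phosphodiesterases were read in both libraries. With 2 libraries each SD is itself rough, and the ratios that involve Npr2 or Mme span several log2 units. The Nppa over Nppc limit was not repeated with another pseudocount or posterior means, since Nppc had no counts, and leading transcripts were not compared with 1 replicate left out. Depth alone does not bound genes at 0 counts, since 22.6% of genes at 10 to 30 TPM had under 3 counts in a library. No paired analysis was possible because all samples belong to 1 group.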
